A study of Homo sapiens with 12 samples.

Results

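Proteasome genes were selected as every row of the count table whose symbol reads PSM, a letter from A to G and a number, which gave 48 genes out of 60612 rows with a gene name. The rule used gene names alone and no measured value. They were followed in CAMA-1 cells, a permanent line from a human breast carcinoma that is positive for the oestrogen receptor (ER), with a wild-type genotype in all groups. Cells growing in the same serum-containing RPMI medium received DMSO (vehicle), abemaciclib at 100 nM, fulvestrant at 5 nM, or abemaciclib with fulvestrant (combination), for which the labels give no doses again. Treatment lasted 5 days. Abemaciclib inhibits the cyclin-dependent kinases CDK4 and CDK6, and fulvestrant binds ER and causes its degradation. Polyadenylated RNA was read from its 3′ end in 3 biological replicates per group, giving 12 libraries of 3299119 to 5164667 counts.

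The proteasome is the protease that degrades proteins tagged with ubiquitin. Its barrel-shaped core is built from rings of alpha subunits (PSMA genes), which form the gate, and rings of beta subunits (PSMB genes), of which PSMB5, PSMB6 and PSMB7 carry the catalytic sites. A regulatory particle of ATPases (PSMC) and further subunits (PSMD) recognises, unfolds and feeds the substrates, activators (PSME) can take its place, and chaperones (PSMG) build the core. In immune cells, and in other cells exposed to interferon, the immunoproteasome subunits PSMB8, PSMB9 and PSMB10 replace the catalytic ones and alter the peptides made for antigen presentation.

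For each library the closest other library, by correlation across genes, came from the same group. All 8 markers of luminal breast epithelium passed the filter on low counts. None of 8 leukocyte markers did, with CD3E and MS4A1 at 0 reads in every library and PTPRC at 0 or 1, and of 6 fibroblast markers COL1A1 passed while COL1A2, DCN, LUM and PDGFRB held 0 reads.

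Levels are normalised read counts (CPM), which express the reads of a gene relative to a fixed library total after scaling by the TMM method. Reads came from the 3′ end, so CPM was compared between genes without a correction for length. Of the 48 genes, 44 passed the filter and were tested. PSMB8, PSMB10, PSMB11 and PSMA8 did not pass. PSMA8, an alpha subunit of the testis, held 0 reads in every library, and PSMB11, the catalytic subunit of the thymus, held 1 read in all. PSMA7 was the highest member, at 752 ± 9.30 CPM in DMSO (SD, n = 3), above 98.9% of the genes tested. Among the members tested, PSMA6 and PSMB9 were lowest, at 2.19 and 2.32 CPM in DMSO.

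**Figure D1:**
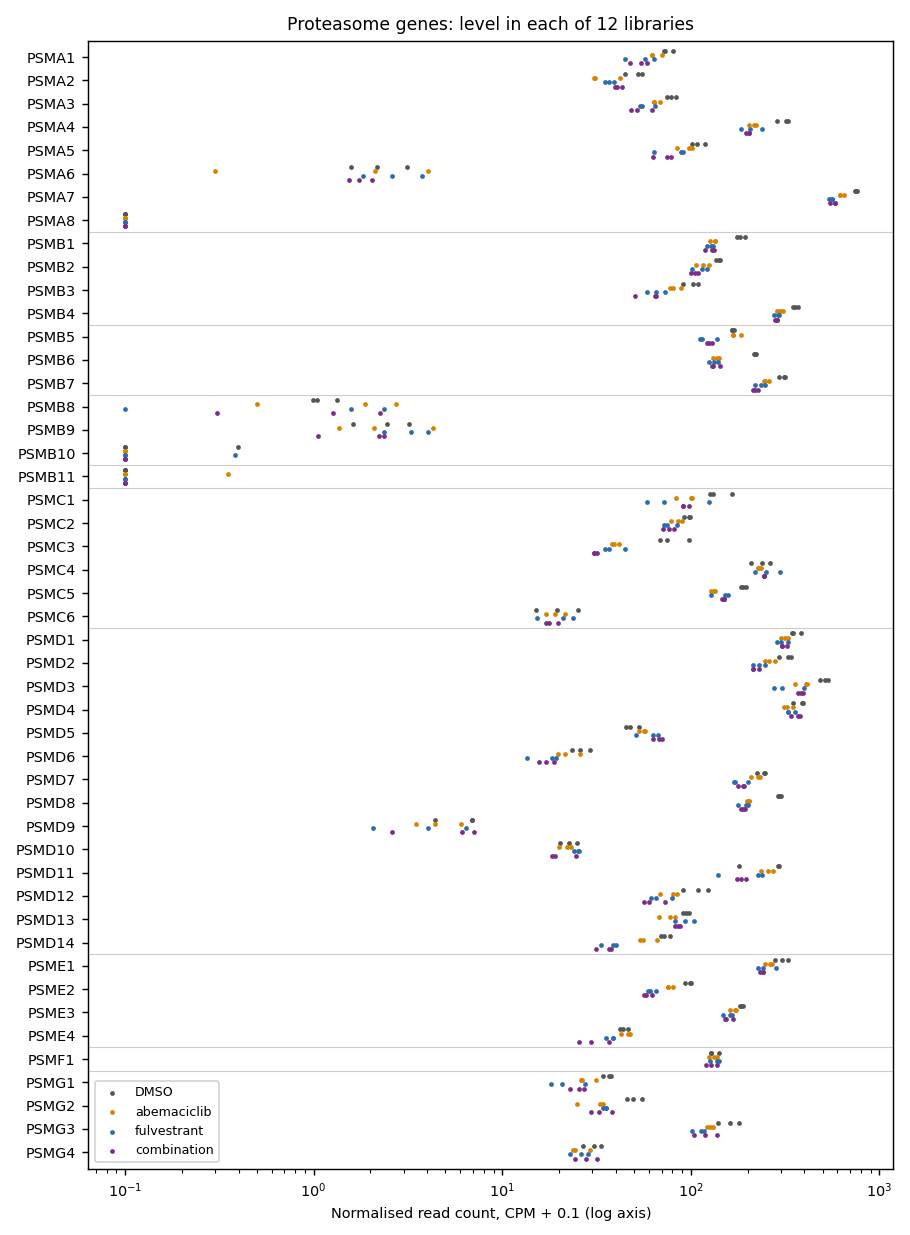
Level of each of the 48 genes, one point per library, coloured by treatment, with CPM + 0.1 on a log axis and horizontal lines between structural classes. Among most core and regulatory particle genes the grey DMSO points lie to the right, whereas PSMB8, PSMB9, PSMB10 and PSMA6 lie at or below 4.19 CPM in every library.

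Proteasome transcripts took up less of the library in every treated group. Summed over the 48 genes, the level was 7320, 7468 and 7404 CPM in the DMSO libraries. It was 6123, 6019 and 6117 CPM with abemaciclib, 5617, 5523 and 5721 CPM with fulvestrant, and 5644, 5596 and 5605 CPM in the combination. No treated library reached the lowest DMSO library, and the fulvestrant and combination libraries overlapped each other and lay below those of abemaciclib. As a percentage of the DMSO mean, the sums were 82.3 ± 0.792 with abemaciclib, 76.0 ± 1.34 with fulvestrant and 75.9 ± 0.346 in the combination (SD, n = 3 each). CPM is relative to all RNA. Less proteasome RNA per cell, more of other RNA per cell and a smaller share of cells that express proteasome genes therefore cannot be told apart.

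By structural class, the alpha ring stood at 80.1% of DMSO with abemaciclib, 72.5% with fulvestrant and 72.0% in the combination. The 3 constitutive catalytic subunits stood at 80.9%, 70.4% and 69.2% in the same order, and the 4 non-catalytic beta subunits at 80.1%, 75.4% and 73.6%. The ATPases were at 78.7%, 81.5% and 80.3%, and the remaining regulatory particle genes at 83.9%, 76.0% and 77.8%. The core chaperones were at 76.2%, 70.1% and 74.7%. The activators were at 87.5%, 80.6% and 77.2%. PSMF1, the inhibitor PI31, was at 100% with abemaciclib, 102% with fulvestrant and 97.6% in the combination, with its libraries overlapping those of DMSO. The immunoproteasome catalytic subunits, with few reads, were at 118 ± 26.5%, 130 ± 48.7% and 85.9 ± 12.5% (SD, n = 3 each), and their treated libraries also overlapped DMSO.

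**Figure D2:**
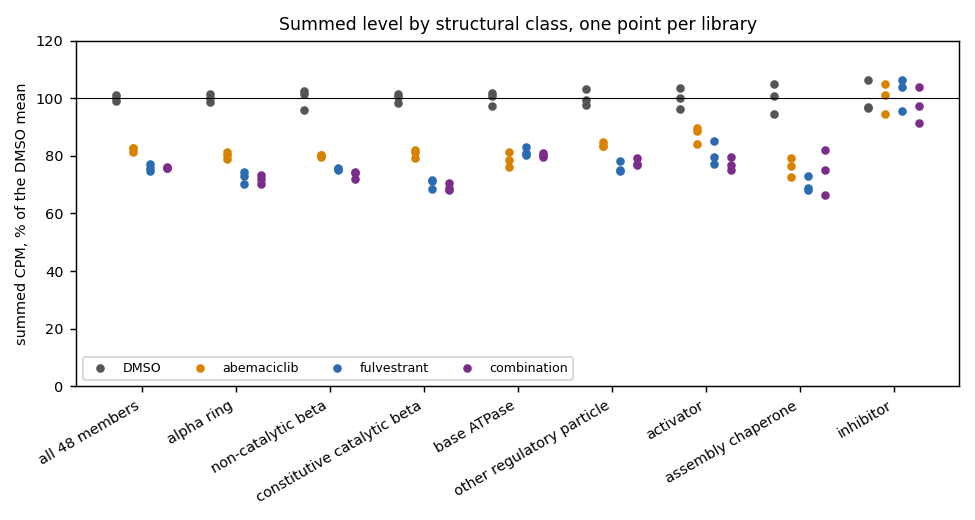
Summed CPM of all 48 members and of the classes named on the axis, as a percentage of the DMSO mean, one point per library; the horizontal line marks 100%. Treated libraries sit between 66.6 and 89.7% in every class shown apart from the inhibitor PSMF1, whose treated libraries lie between 91.6 and 106%; the immunoproteasome catalytic subunits and PSMB11, with few reads, are not plotted as classes.

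Each gene was compared between groups with edgeR's quasi-likelihood test, with p-values adjusted by the Benjamini-Hochberg method over the 11803 genes tested and called under 0.05. With abemaciclib, 25 of 44 members fell and none rose, whereas 20.7% of all genes tested fell and 20.5% rose. No member was higher at an unadjusted p under 0.05, nor by DESeq2. The median log2 fold change of the members was -0.27, against 0.00046 for all genes. With fulvestrant, 31 fell and 1 rose, beside 25.7% of all genes falling and 25.3% rising, and the median was -0.44 against 0.0075. In the combination, 31 fell and 1 rose, beside 27.5% and 27.7% of all genes, with a median of -0.42 against 0.010. These 3 comparisons share the same DMSO libraries.

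The changes were modest in size. A fall of 1 or more on the log2 scale was reached by 1 member with abemaciclib, 1 with fulvestrant and 2 in the combination. Of all genes tested, 1351, 2158 and 2394 reached that size in either direction. The median absolute log2 change of the members was 0.27, 0.44 and 0.43, against 0.34, 0.43 and 0.46 over all genes.

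**Figure D3:**
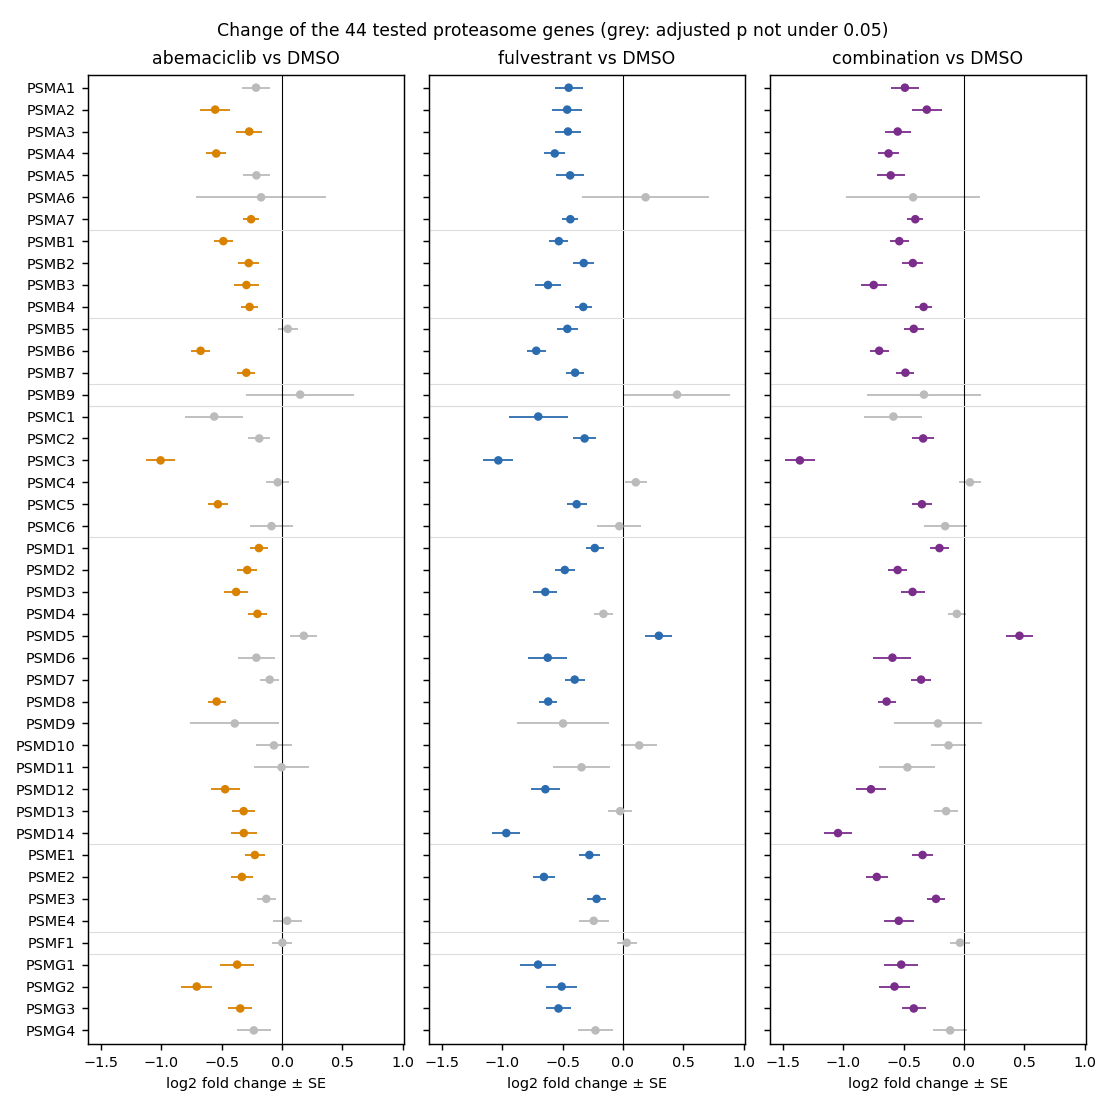
log2 fold change against DMSO with its SE for the 44 tested members in 3 panels, one per treatment; coloured points passed an adjusted p of 0.05 and grey points did not, and horizontal lines separate the classes. Coloured points lie left of 0 in every panel with 1 exception, PSMD5, with fulvestrant and in the combination.

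Among the constitutive catalytic subunits, PSMB6, which carries the caspase-like site, changed most. It read 221, 219 and 216 CPM in DMSO and 131, 137 and 142 CPM with abemaciclib. With fulvestrant it read 133, 125 and 140 CPM, and in the combination 143, 129 and 131 CPM. The treated groups overlapped one another and none came near DMSO. The log2 fold changes were -0.68 ± 0.08 (SE, adjusted p = 7.0e-08), -0.72 ± 0.08 (1.3e-08) and -0.70 ± 0.08 (1.4e-08). PSMB7, the trypsin-like subunit, read 295, 313 and 317 CPM in DMSO, 249, 245 and 260 with abemaciclib, 247, 237 and 220 with fulvestrant, and 214, 218 and 229 in the combination. Its log2 fold changes were -0.30, -0.40 and -0.49, all called, again without overlap with DMSO.

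PSMB5, which carries the chymotrypsin-like site that clinical proteasome inhibitors bind, was called only where fulvestrant had been given. It read 166, 165 and 170 CPM in DMSO and 184, 168 and 167 CPM with abemaciclib, a log2 difference of 0.05 with a 95% interval from -0.12 to 0.21 that was not called (adjusted p = 0.68). With fulvestrant it read 114, 112 and 137 CPM, and in the combination 121, 125 and 130 CPM. Libraries that received fulvestrant lay below all that did not. PSMB5 fell by 0.46 with fulvestrant and by 0.42 in the combination on the log2 scale, and by 0.46 in the combination relative to abemaciclib alone (adjusted p = 8.5e-05).

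The immunoproteasome counterparts were close to the limit of detection in every group. PSMB8, the counterpart of PSMB5, held 3, 5 and 6 reads in DMSO, 2, 12 and 7 with abemaciclib, 6, 0 and 10 with fulvestrant, and 9, 1 and 6 in the combination. PSMB5 held 400 to 922 reads in the same libraries. The 3 treated groups each overlapped DMSO. The spread within each treated group covered most of the range of the data, whereas the DMSO libraries lay closer together. PSMB10, the counterpart of PSMB7, held 1 read in a DMSO library, 1 in a fulvestrant library and 0 in the other 10. A gene model, ENSG00000261884, lies on the same strand over all of the last 300 bases of PSMB10, and how reads shared by 2 genes were counted is not stated, so the PSMB10 counts are uncertain. PSMB9, the counterpart of PSMB6, held between 4 and 21 reads and was the only one of the 3 to be tested. It read 2.37, 1.51 and 3.09 CPM in DMSO, 4.19, 1.98 and 1.26 with abemaciclib, 3.94, 2.25 and 3.18 with fulvestrant, and 0.960, 2.27 and 2.13 in the combination. The groups overlapped, and the log2 differences from DMSO of 0.15, 0.45 and -0.33 were not called (adjusted p of 0.82, 0.41 and 0.57). Their 95% intervals ran from -0.73 to 1.03, -0.42 to 1.31 and -1.26 to 0.60. They include a 2-fold rise with abemaciclib and with fulvestrant, and a 2-fold fall in the combination.

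**Figure D4:**
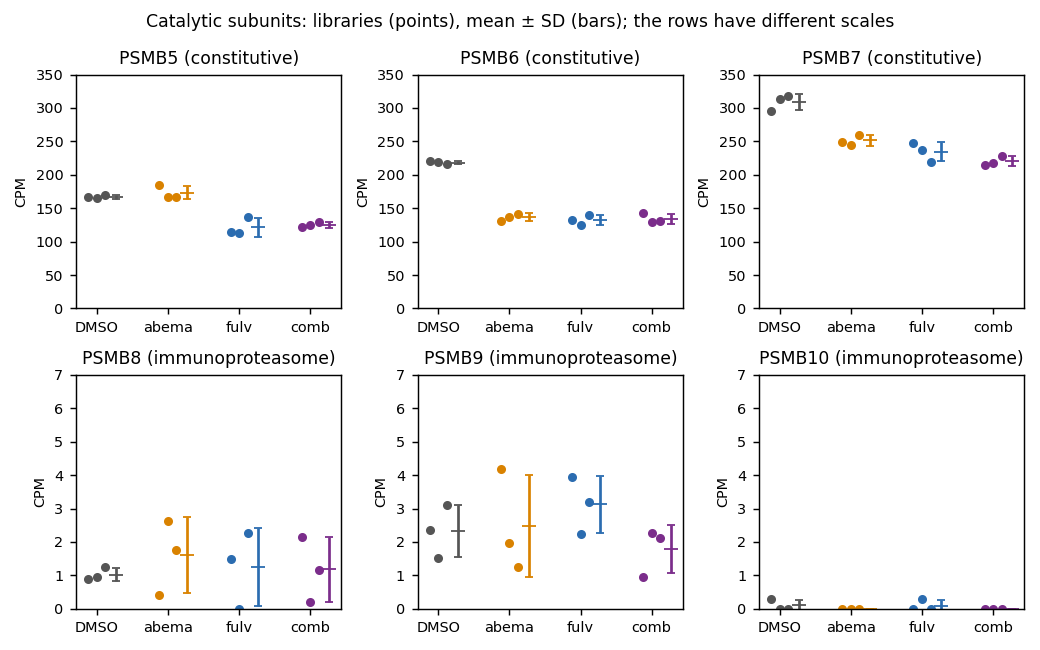
CPM of the constitutive catalytic subunits (top) and their immunoproteasome counterparts (bottom) in DMSO, abemaciclib (abema), fulvestrant (fulv) and the combination (comb), with points for libraries and bars for the mean ± SD; the top axes run to 350 CPM and the bottom ones to 7 CPM. PSMB6 and PSMB7 lie below DMSO with each treatment and PSMB5 only where fulvestrant was given, whereas PSMB8 and PSMB9 scatter below 5 CPM and PSMB10 lies at or near 0.

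Within a library, the share of immunoproteasome reads in each pair does not depend on scaling. PSMB8 made up 0.607 ± 0.0998% of the PSMB8 and PSMB5 reads in DMSO, 0.938 ± 0.674% with abemaciclib, 0.969 ± 0.857% with fulvestrant and 0.934 ± 0.794% in the combination (SD, n = 3). For the fulvestrant library with no PSMB8 read, the exact 95% binomial interval reached up to 0.918%. The mean became 0.639% without fulvestrant replicate 3 and 0.526% without combination replicate 1. PSMB9 made up 1.06%, 0.689% and 1.41% of the PSMB9 and PSMB6 reads in the DMSO libraries and 2.88%, 1.77% and 2.23% in those of fulvestrant, the only treatment whose libraries all lay above DMSO for this pair. Exact 95% binomial (Clopper-Pearson) intervals of single libraries overlapped in part. Those of the highest DMSO library (0.793 to 2.32%) and the lowest fulvestrant library (0.765 to 3.45%) overlapped. Those of the lowest DMSO library (0.298 to 1.35%) and the highest fulvestrant library (1.66 to 4.64%) did not. PSMB6 itself fell with fulvestrant, as given above, and PSMB9 was not called. The shares were 3.09%, 1.42% and 0.880% with abemaciclib and 0.668%, 1.73% and 1.60% in the combination, both overlapping DMSO, and the abemaciclib mean of 1.80% became 1.15% without replicate 1. For PSMB10 and PSMB7 the share was 0 in 10 libraries. Their exact 95% intervals reached up to 0.223% to 0.412% depending on the library, provided that reads in the overlap with ENSG00000261884 were counted for PSMB10. With 3 libraries per group an exact two-sided permutation test cannot go below p = 0.10, and the shares were not tested. Intervals and limits cover counting error only.

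Promoter windows are shown for PSMB9 and PSMB10, as immunoproteasome genes with few or no reads, for PSMC3, which fell most, and for PSMD5, the one member that rose. Each window spans 250 bases before to 50 after the gene's start in RefSeq (GRCh38.p14) and is written 5′ to 3′ on the strand of the gene, with motif matches in capitals. The motifs, searched on both strands, were TGACNNNGC (the core of antioxidant response elements), GAAANNGAA (bound by interferon regulatory factors), TTTNNCGC (bound by E2F factors) and CCAAT (bound by NF-Y).
PSMB9 (chr6:32853942-32854241, plus strand): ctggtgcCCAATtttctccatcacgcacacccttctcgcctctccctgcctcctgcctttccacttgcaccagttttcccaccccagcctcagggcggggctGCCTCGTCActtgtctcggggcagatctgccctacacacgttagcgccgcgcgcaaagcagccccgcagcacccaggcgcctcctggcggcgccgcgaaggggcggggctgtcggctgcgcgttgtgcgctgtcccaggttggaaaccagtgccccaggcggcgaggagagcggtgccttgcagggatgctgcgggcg
PSMB10 (chr16:67936801-67937100, minus strand): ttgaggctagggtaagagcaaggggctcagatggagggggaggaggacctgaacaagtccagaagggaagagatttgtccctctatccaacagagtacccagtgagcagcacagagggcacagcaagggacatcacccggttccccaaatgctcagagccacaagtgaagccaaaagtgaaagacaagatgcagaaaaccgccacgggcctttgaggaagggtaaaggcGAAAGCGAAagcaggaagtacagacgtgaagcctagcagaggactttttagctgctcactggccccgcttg
PSMC3 (chr11:47426390-47426689, minus strand): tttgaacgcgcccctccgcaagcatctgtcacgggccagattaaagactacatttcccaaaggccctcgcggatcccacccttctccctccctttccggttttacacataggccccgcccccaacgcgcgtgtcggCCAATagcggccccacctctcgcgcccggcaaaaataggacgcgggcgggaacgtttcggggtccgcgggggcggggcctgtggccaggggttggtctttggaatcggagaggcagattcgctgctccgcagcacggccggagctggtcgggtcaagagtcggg
PSMD5 (chr9:120842873-120843172, minus strand): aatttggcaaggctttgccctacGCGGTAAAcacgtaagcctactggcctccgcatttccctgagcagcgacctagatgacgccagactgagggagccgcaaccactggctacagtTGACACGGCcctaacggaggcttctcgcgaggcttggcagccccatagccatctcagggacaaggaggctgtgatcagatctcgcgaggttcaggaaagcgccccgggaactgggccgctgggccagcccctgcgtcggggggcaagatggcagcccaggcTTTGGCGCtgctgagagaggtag

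The PSMB10 window held a GAAANNGAA match 21 bases before the start, whereas that of PSMB9 held none and instead a TGACNNNGC and a CCAAT match. The PSMC3 window held CCAAT alone, and that of PSMD5 held 1 TGACNNNGC and 2 TTTNNCGC matches. In these 4 windows no match overlapped another. RefSeq windows were found for 42 of the 48 members (51 windows) but not for PSMA7, PSMB1, PSMB6, PSMB7, PSMD4 and PSMG3. TGACNNNGC occurred in 29.4% of the members' windows and in 13.3% of all 35116 windows, GAAANNGAA in 15.7% and 8.11%, TTTNNCGC in 13.7% and 6.89%, and CCAAT in 39.2% and 34.6%. A match is a description of letters and does not show that a factor binds.

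In the alpha ring, 4 of the 7 tested genes fell with abemaciclib and 6 of 7 with fulvestrant and in the combination. The class counts here and below stand beside 20.7%, 25.7% and 27.5% of all genes tested that fell in these comparisons with DMSO. PSMA4 read 328, 318 and 288 CPM in DMSO, 216, 204 and 221 with abemaciclib, 206, 185 and 239 with fulvestrant, and 204, 197 and 204 in the combination. All 9 treated libraries lay below the lowest DMSO library, with log2 fold changes of -0.55, -0.57 and -0.63. PSMA2 read 44.7, 52.5 and 55.0 CPM in DMSO and 42.1, 31.0 and 30.5 with abemaciclib, a log2 fold change of -0.55 ± 0.13 (adjusted p = 0.00088). It read 39.2, 35.2 and 36.6 CPM with fulvestrant (-0.46) and 40.3, 39.8 and 43.4 in the combination (-0.31, adjusted p = 0.036). A neighbouring gene model, ENSG00000256646, lies on the same strand over all of the last 300 bases of PSMA2, and how reads shared by 2 genes were counted is not stated, so the PSMA2 counts are uncertain.

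PSMA5 was called only where fulvestrant had been given. It read 101, 119 and 108 CPM in DMSO, 84.8, 97.7 and 102 with abemaciclib, 88.7, 90.9 and 64.1 with fulvestrant, and 78.2, 74.8 and 63.3 in the combination. Abemaciclib and DMSO overlapped and the difference of -0.21 was not called (adjusted p = 0.14). Values of -0.44 with fulvestrant and -0.61 in the combination were called, as was that of -0.40 for the combination relative to abemaciclib. PSMA7 fell by 0.26, 0.44 and 0.40 on the log2 scale with abemaciclib, fulvestrant and the combination. PSMA6 held 1 to 18 reads per library, far below its ring partners, and was not called. A gene model on the same strand covers 281 of its last 300 bases and a near-identical copy exists elsewhere in the genome. The part of either in its low count was not tested.

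The 4 non-catalytic beta subunits all fell in each comparison with DMSO. PSMB3 fell most in the combination. It read 90.5, 102 and 109 CPM in DMSO, 80.4, 77.5 and 88.7 with abemaciclib, 58.6, 72.6 and 65.4 with fulvestrant, and 65.0, 64.5 and 50.7 in the combination. The groups stepped down without overlap from DMSO to abemaciclib and from abemaciclib to the fulvestrant-treated groups, which overlapped each other. Log2 fold changes were -0.30, -0.62 and -0.75, and -0.45 ± 0.11 for the combination relative to abemaciclib (adjusted p = 0.0018). For PSMB1, PSMB2 and PSMB4 the log2 fold changes against DMSO ranged from -0.54 to -0.27.

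Among the 6 ATPases that form the unfolding ring of the regulatory particle, 2 fell with abemaciclib, 4 with fulvestrant and 3 in the combination. These are 33.3%, 66.7% and 50% of the class, beside 20.7%, 25.7% and 27.5% of all genes tested. PSMC3 fell most of all members in each of the 3 comparisons. It read 97.6, 75.0 and 68.6 CPM in DMSO, 41.7, 38.3 and 39.0 with abemaciclib, 35, 36.9 and 44.8 with fulvestrant, and 30.7, 30.7 and 31.8 in the combination. The 3 combination libraries lay below all others, and the DMSO libraries above all others. PSMC3 changed by -1.01 ± 0.12 with abemaciclib (SE, adjusted p = 2.0e-07), -1.03 ± 0.13 with fulvestrant (8.6e-08) and -1.36 ± 0.13 in the combination (5.2e-10), so that its level decreased by 50.2% with abemaciclib, decreased by 51.2% with fulvestrant and decreased by 61.1% in the combination. The step from abemaciclib to the combination, -0.35 ± 0.13, was called (adjusted p = 0.041) and the step from fulvestrant, -0.33 ± 0.13, was not (adjusted p = 0.31). The call relative to abemaciclib was lost in 9 of 20 alternatives, among them DESeq2 (adjusted p = 0.070), the replicate block (0.051) and library totals (0.090).

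PSMC5 fell by 0.53 with abemaciclib, 0.38 with fulvestrant and 0.35 in the combination on the log2 scale. PSMC4 and PSMC6 stayed close to DMSO, with log2 differences between -0.16 and 0.11 that were not called. PSMC1 was uneven between replicates. It read 164, 127 and 131 CPM in DMSO, 101, 83.0 and 100 with abemaciclib, 72.0, 58.8 and 125 with fulvestrant, and 98.4, 90.9 and 91.0 in the combination. Fulvestrant replicate 3 stood apart from the other two and close to DMSO. Only the fulvestrant difference was called (-0.70 ± 0.24, adjusted p = 0.039), and that call was lost in 12 of 20 alternatives, for example at -0.58 without fulvestrant replicate 1 (adjusted p = 0.12) and at -0.50 without replicate 2 (adjusted p = 0.084). Without fulvestrant replicate 3 the values became -1.09 with fulvestrant, -0.56 with abemaciclib and -0.58 in the combination, and all 3 were called (adjusted p of 6.3e-10, 1.1e-05 and 3.0e-06). PSMC1 shares its 3′ end with NRDE2 on the opposite strand, and whether reads were counted by strand is not stated. The same limit holds for PSME1, which overlaps EMC9 there, and for PSMD7, which overlaps ENSG00000259972.

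Of the 14 PSMD genes, 11 encode structural subunits or receptors of the regulatory particle and PSMD5, PSMD9 and PSMD10 encode chaperones that assemble its base. This split was made after the values were seen. Of the 11, 8 fell with abemaciclib, 8 with fulvestrant and 8 in the combination, and none rose. PSMD14, the deubiquitinase that removes ubiquitin chains from the substrate, read 71.9, 77.8 and 69.2 CPM in DMSO, 53.9, 66.5 and 55.7 with abemaciclib, 33.5, 38.5 and 40.0 with fulvestrant, and 37.0, 31.5 and 37.8 in the combination. The fulvestrant-treated groups overlapped each other and lay below abemaciclib, which lay below DMSO. Its log2 fold changes were -0.32 ± 0.11 with abemaciclib (adjusted p = 0.021), -0.97 ± 0.12 with fulvestrant (6.8e-08) and -1.04 ± 0.11 in the combination (1.2e-08). The combination was 0.73 ± 0.12 below abemaciclib (adjusted p = 1.5e-05), the largest such step among the members.

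PSMD12, a subunit of the lid, read 123, 110 and 91.3 CPM in DMSO, 68.4, 84.1 and 80.6 with abemaciclib, 61.4, 65.5 and 79.3 with fulvestrant, and 73.2, 56.5 and 60.0 in the combination, with log2 fold changes of -0.47, -0.64 and -0.77. PSMD3, another lid subunit, read 484, 533 and 516 CPM in DMSO, 410, 358 and 412 with abemaciclib, 305, 276 and 401 with fulvestrant, and 382, 392 and 368 in the combination. Every treated library of both genes lay below DMSO. PSMD3 changed by -0.38, -0.64 and -0.43, and fulvestrant replicate 3 was again the highest of its group. PSMD4, a ubiquitin receptor, fell with abemaciclib (-0.20) and was not called with fulvestrant (-0.16) or in the combination (-0.06). PSMD11, also of the lid, ranged from 139 to 294 CPM and was not called in any comparison.

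None of the base-assembly chaperones was called lower. PSMD5 read 45.3, 47.4 and 53.4 CPM in DMSO, 53.1, 56.1 and 56.9 with abemaciclib, 66.8, 62.7 and 50.9 with fulvestrant, and 62.9, 70.5 and 68.0 in the combination. The combination libraries lay above all DMSO and abemaciclib libraries, whereas those of fulvestrant overlapped DMSO. PSMD5 rose by 0.30 ± 0.11 with fulvestrant (adjusted p = 0.028) and by 0.46 ± 0.11 in the combination (adjusted p = 0.00079), and the 0.18 with abemaciclib was not called. DESeq2 did not call the fulvestrant value. PSMD10 showed log2 differences from DMSO of -0.07, 0.13 and -0.13 and PSMD9 of -0.39, -0.50 and -0.22, none of them called, the latter at 1.97 to 7.01 CPM.

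Of the 4 activators, 2 fell with abemaciclib, 3 with fulvestrant and 4 in the combination. PSME1 and PSME2 form the cap that is induced by interferon and works with the immunoproteasome. PSME1 read 330, 279 and 306 CPM in DMSO, 264, 248 and 269 with abemaciclib, 240, 228 and 284 with fulvestrant, and 243, 243 and 234 in the combination (log2 fold changes of -0.23, -0.28 and -0.34, all called, with fulvestrant overlapping DMSO). PSME2 read 100, 99.5 and 92.7 CPM in DMSO, 80.2, 75.7 and 75.8 with abemaciclib, 60.9, 59.1 and 65.2 with fulvestrant, and 56.4, 58.1 and 62.1 in the combination. The abemaciclib libraries formed a step between DMSO and the fulvestrant-treated groups without overlap. PSME2 changed by -0.33 ± 0.09, -0.66 ± 0.09 and -0.72 ± 0.09, and by -0.39 ± 0.09 in the combination relative to abemaciclib (adjusted p = 0.0014). It has 3 genomic copies at 97% identity or more, and how reads matching several places were counted is not stated.

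PSME3, the activator of the nucleus, read 182, 184 and 188 CPM in DMSO, 174, 161 and 172 with abemaciclib, 166, 162 and 149 with fulvestrant, and 167, 154 and 152 in the combination. Its small changes of -0.22 and -0.23 with fulvestrant and in the combination were called. PSME4, which promotes degradation of acetylated histones, read 42.0, 46.4 and 43.9 CPM in DMSO, 47.5, 46.7 and 42.3 with abemaciclib, 35.2, 38.5 and 38.4 with fulvestrant, and 36.7, 29.5 and 25.6 in the combination. Only the combination was called against DMSO (-0.54 ± 0.13, adjusted p = 0.00063), and it also lay below abemaciclib (-0.58 ± 0.12, adjusted p = 0.00058).

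Of the 4 chaperones of core assembly, 3 fell in each comparison with DMSO. PSMG1 and PSMG2 act as a pair on the alpha ring. PSMG2 read 54.7, 49.1 and 45.9 CPM in DMSO, 24.7, 32.8 and 34.3 with abemaciclib, 35.5, 34.0 and 35.2 with fulvestrant, and 29.5, 37.9 and 32.3 in the combination. PSMG1 read 36.7, 34.1 and 37.7 CPM in DMSO, 26.3, 26.2 and 31.5 with abemaciclib, 20.7, 18 and 27.3 with fulvestrant, and 22.8, 27 and 25.6 in the combination. In both genes the treated libraries lay below DMSO and overlapped one another. PSMG2 changed by -0.71, -0.51 and -0.58 and PSMG1 by -0.37, -0.70 and -0.52. PSMG4, the partner of PSMG3, was not called, with values of -0.23, -0.23 and -0.11.

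The step from abemaciclib to the combination asks what fulvestrant adds. Relative to abemaciclib alone, 10 of 44 fell and 1 rose in the combination, beside 17.7% of all genes tested that fell and 15.9% that rose, so the share of 22.7% lay near that of all genes. The members that fell were PSMD14, PSME4, PSMB5, PSMB3, PSMA5, PSME2, PSMC3, PSMA3, PSMD2 and PSMD7. The median of the members was -0.11 against 0.011 over all genes.

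No member was called when abemaciclib was added to fulvestrant. Relative to fulvestrant alone, 0 of 44 members were called in either direction by edgeR and by DESeq2, beside 1.63% of all genes tested that fell and 0.297% that rose. At an unadjusted p under 0.05, 1 was higher and 2 were lower. The median was -0.05 against 0.00084. For well-measured members the interval was narrow, from -0.14 to 0.17 for PSMB6 and from -0.10 to 0.17 for PSMA7, whereas for PSMB9 it ran from -1.67 to 0.11. Without fulvestrant replicate 3, PSMC1 (0.51) and PSMD3 (0.39) were called higher in the combination. In that setting 588 of 12069 genes were called in either direction, beside 227 of 11803 with all libraries.

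The design also allows the effect of abemaciclib to be compared without and with fulvestrant. This interaction was positive and called for 12 members and negative for none (0 also at an unadjusted p under 0.05 and by DESeq2), beside 9.49% of all genes tested with a positive and 11.6% with a negative call. The median over the members was 0.22, against -0.013 over all genes. The largest was that of PSMA2 (0.71), followed by PSMB6 (0.69 ± 0.11, adjusted p = 4.6e-05), PSMC3 (0.68), PSMG2 (0.64) and PSMD3 (0.60). For PSMB6 the abemaciclib effect was -0.68 without and 0.02 with fulvestrant, so that the 3 treated groups reached a like level. For PSMC3 it was -1.01 without and -0.33 with fulvestrant. PSMB5 had an interaction of -0.0026 with an interval from -0.24 to 0.23.

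**Figure D5:**
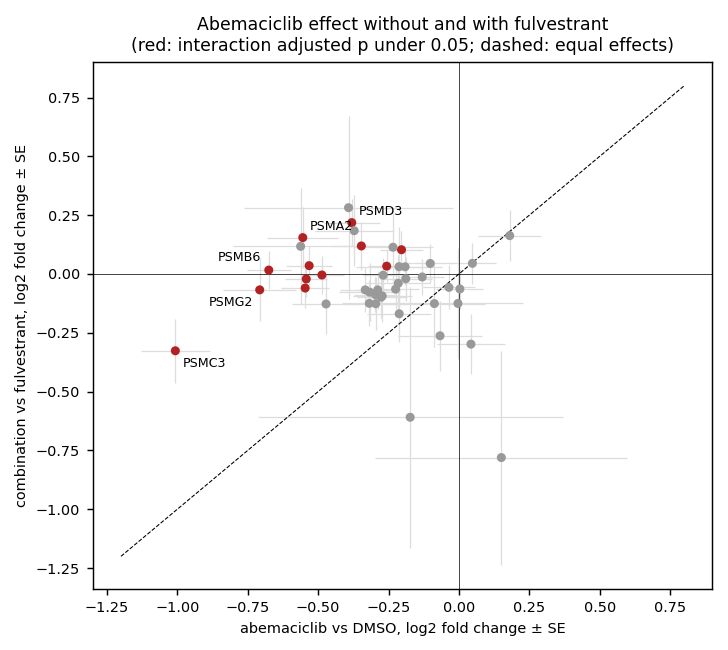
log2 effect of abemaciclib on each of the 44 tested members without fulvestrant (x axis) and with it (y axis), with SE bars; red points passed the test of the difference between both effects and the dashed line marks equal effects. The 12 red points lie above the line, most of them near 0 on the y axis, with PSMC3 the furthest to the left at -1.01 and -0.33.

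Genes that act with the proteasome were taken from a list of 28 partners, all tested. With abemaciclib 4 rose and 6 fell, with fulvestrant 5 and 8, and in the combination 3 and 10, while the medians of 0.02, -0.02 and -0.01 lay near those of all genes. As shares of the list, 21.4%, 28.6% and 35.7% fell and 14.3%, 17.9% and 10.7% rose, beside 20.7%, 25.7% and 27.5% of all genes that fell and 20.5%, 25.3% and 27.7% that rose. Ubiquitin-handling partners were among those that fell. ADRM1, a ubiquitin receptor of the regulatory particle, read 156, 134 and 147 CPM in DMSO and 78.2, 75.5 and 76.3 in the combination, with log2 fold changes of -0.67, -0.78 and -0.92 for the 3 treatments. UFD1, a cofactor of the segregase VCP, changed by -0.73, -0.77 and -0.85, and UCHL5, the deubiquitinase that binds ADRM1, by -0.27, -0.87 and -0.92. POMP, which assembles the core and its beta subunits, changed by -0.21, -0.28 and -0.47. In the combination relative to abemaciclib, 3 partners (10.7%) rose and 8 (28.6%) fell, beside 15.9% and 17.7% of all genes tested. UBQLN4, a ubiquitin shuttle, was lowest at -0.80. Relative to fulvestrant, 0 partners were called by edgeR (4 at an unadjusted p under 0.05). The interaction was positive for 2 partners and negative for 2 (7.14% each), beside 9.49% and 11.6% of all genes tested.

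NFE2L1, the transcription factor that induces proteasome genes when the proteasome is impaired, went the other way. It read 59.8, 61.2 and 56.7 CPM in DMSO, 75.0, 72.9 and 75.3 with abemaciclib, 70.0, 64.4 and 79.5 with fulvestrant, and 87.8, 90.7 and 84.6 in the combination. All treated libraries lay above DMSO, with log2 fold changes of 0.33, 0.27 and 0.57 (adjusted p of 0.0072, 0.021 and 1.2e-05). NGLY1, the glycanase that activates the NFE2L1 protein, rose by 0.54, 0.46 and 0.48. PAAF1, a further chaperone of the regulatory particle, rose with abemaciclib (0.69, adjusted p = 0.039). From the same list, NFE2L2 fell with abemaciclib (-0.33, adjusted p = 0.0060) and was not called with fulvestrant (-0.16). DDI2 was not called with abemaciclib (0.19) or with fulvestrant (-0.05). In the combination NFE2L2 averaged 68.18 CPM and DDI2 78.35 CPM, beside 82.57 and 72.39 CPM in DMSO.

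In a list of 14 genes that induce the immunoproteasome or act with it in antigen presentation, 12 were tested. Of these, 6 rose with abemaciclib, 8 with fulvestrant and 8 in the combination, and none fell (0 by edgeR, and 0 at an unadjusted p under 0.05), with medians of 0.60, 0.62 and 0.62. These are 50%, 66.7% and 66.7% of the list, beside 20.5%, 25.3% and 27.7% of all genes tested that rose. TAP1, which together with TAP2 carries peptides into the endoplasmic reticulum and neighbours PSMB9 in the genome, read 8.28, 14 and 9.89 CPM in DMSO, 24.1, 24.6 and 24.7 with abemaciclib, 25.1, 21.1 and 25.0 with fulvestrant, and 27.6, 26.2 and 22.1 in the combination. The treated libraries overlapped one another and lay above DMSO, with log2 fold changes of 1.15 ± 0.17, 1.11 ± 0.17 and 1.20 ± 0.17. TAP2 did not rise with it. Its log2 differences of -0.14 with abemaciclib and -0.26 with fulvestrant were not called, and it averaged 30.67 CPM in the combination beside 32.97 CPM in DMSO. IRF1, an interferon-induced activator of immunoproteasome genes, rose by 0.78, 0.70 and 0.71. The kinases JAK1 and JAK2, which act at cytokine receptors, rose by 0.57, 0.74 and 0.69 and by 0.74, 0.63 and 0.66. ERAP1, an aminopeptidase that trims peptides for presentation, read 2.37, 1.71 and 2.47 CPM in DMSO and 5.04, 2.68 and 4.84 in the combination, a called rise of 0.94 (adjusted p = 0.035). Its differences of 0.86 with abemaciclib (adjusted p = 0.072) and 0.88 with fulvestrant (adjusted p = 0.059) were not called. ERAP1 held only 8 to 25 reads per library. The interaction was negative for 6 of the 12 (beside 11.6% of all genes), with TAP1 at -1.07, and positive for 0, also at an unadjusted p under 0.05. In the combination relative to abemaciclib, and relative to fulvestrant, none of the 12 was called in either direction (1 and 0 at an unadjusted p under 0.05). PSMB9 was the only immunoproteasome subunit that could be tested. Its intervals with abemaciclib and with fulvestrant include a rise of the size seen in IRF1, whereas in the combination the upper bound of 0.60 lies below the 0.71 of IRF1. The error of the IRF1 value is not part of this comparison, and the difference between PSMB9 and IRF1 was not tested. Leukocyte and fibroblast markers were set beside these genes. Of the 8 leukocyte markers LAPTM5 had the most reads over all libraries together. It held 2 reads in the DMSO libraries together, 10 with abemaciclib, 20 with fulvestrant and 17 in the combination. CD14 held 9, 3, 11 and 4 reads in the same order, and CD3E and MS4A1 held 0. The fibroblast marker COL1A1 was called higher with abemaciclib (0.45, adjusted p = 0.031) and with fulvestrant (0.48, adjusted p = 0.019) and not in the combination (0.24), while COL1A2, DCN, LUM and PDGFRB held 0. VIM did not pass the filter and held 11 reads in DMSO, 27 with abemaciclib, 18 with fulvestrant and 15 in the combination. The part of these markers in the result was not tested.

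Reads assigned to pseudogenes of the family were few beside those of all members together. The 35 rows named as PSM pseudogenes held 1395 reads in all 12 libraries, or 0.421% of the reads in members and pseudogenes together, and 16 of these rows held none. Most of these reads, 1033, were in the row PSME2P6, at 50 to 136 per library, beside 3942 reads in PSME2 itself. The part of PSME2P6 in the PSME2 values was not tested.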

How the data were processed

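RNA from CAMA-1 cells was made into libraries with the QuantSeq 3′ FWD kit, sequenced as single reads, trimmed and aligned to GRCh38 with STAR, and counted per gene with featureCounts 2.0.1 on GENCODE v35 by the authors. The deposited values are raw read counts per gene symbol. Strand use and the handling of reads shared by genes or copies were not given in the sources used here, and no molecular identifiers are named, so reads are not independent molecules. Replicates are biological replicates per the labels.

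Groups were taken from the treatment label. The table held 60656 rows, and the 44 rows without a name held 0 reads. In R 4.3.3, edgeR 4.0.16 kept 11803 genes (filterByExpr by group, minimum count 10, minimum total 15), scaled libraries by TMM and fitted 4 group means to all 12 libraries with robust quasi-likelihood (common biological coefficient of variation 0.0918). The 6 contrasts, the interaction being the abemaciclib effect with minus without fulvestrant, were adjusted over all genes. Standard errors were derived from the F statistic. DESeq2 1.42.0, the tool of the study's methods, was an alternative. On simulated counts, 195 of 200 genes changed 2-fold were recovered with 14 false calls among 11567 genes for abemaciclib vs DMSO, and 170 with 7 among 11548 for the interaction. The simulation gave every gene the same spread and left the lowest-expressed genes unchanged. It does not measure recovery of the smaller changes reported for most members. Numbers did not pair the libraries (see the closing section).

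Values in every library are given for the catalytic subunits, the activators and the 5 called members with the largest change in each comparison. Partner genes came from lists of 28 and 14 genes, named by the 3 largest changes plus NFE2L1, POMP, IRF1 and TAP1. A further gene that the rule names is not reported here. DDI2, NFE2L2, NGLY1, TAP2, PSME2P6, PSMA6, PSMA7, PSMC4, PSMC5, PSMC6, PSMD4, PSMD9, PSMD10, PSMD11 and PSMG4 were named after their values were seen. The members, lists and tests were chosen with earlier results of these data known. Alternatives were 3 other scalings, DESeq2, 2 other filters, only the groups compared, a replicate block and each library left out. Gene overlaps and copies were read from GENCODE v44 and GRCh38, over the last 300 bases of each transcript.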

Additional observations from a re-analysis of the deposited data

Results flagged for a closer look

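For 12 members the change with abemaciclib was not the same in the absence and presence of fulvestrant, by the interaction test of edgeR. Each interaction is given in log2 units with its SE and adjusted p. It was 0.71 ± 0.18 for PSMA2 (0.0056), 0.69 ± 0.11 for PSMB6 (4.6e-05), 0.68 ± 0.18 for PSMC3 (0.0084) and 0.64 ± 0.19 for PSMG2 (0.015). It was 0.60 ± 0.14 for PSMD3 (0.0040), 0.57 ± 0.12 for PSMC5 (0.00078), 0.52 ± 0.11 for PSMD8 (0.00071) and 0.49 ± 0.12 for PSMA4 (0.0048). It was 0.48 ± 0.11 for PSMB1 (0.0027), 0.47 ± 0.14 for PSMG3 (0.020), 0.31 ± 0.11 for PSMD4 (0.046) and 0.29 ± 0.10 for PSMA7 (0.030). In these genes the log2 change with abemaciclib lay between -1.01 and -0.20 without fulvestrant and between -0.33 and 0.22 with it. The calls of PSMD4, PSMG3, PSMG2 and PSMA7 were lost in 11, 4, 2 and 10 of 19 alternatives, and the other 8 held in all 19. The cause of the difference was not tested.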

How the results depend on the processing

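Members lower than in DMSO numbered 20 to 27 with abemaciclib, 28 to 33 with fulvestrant and 29 to 32 in the combination across the other settings, and 18 to 26, 29 to 31 and 28 to 33 when each library was left out in turn. Positive interactions numbered 10 to 17 and, with a library left out, 9 to 17. The single member higher with fulvestrant (PSMD5) became 0 with library totals, with only the groups compared and with DESeq2, and 0 to 2 with a library left out. For the combination relative to abemaciclib, the single higher member (PSMD5) became 0 with DESeq2 size factors, no filter, at least 10 counts in every library, the replicate block and DESeq2, 2 with library totals or only the groups compared, and 0 to 1 with a library left out. The 10 lower members became 6 with library totals, 16 with only the groups compared and 6 to 14 with a library left out. Relative to fulvestrant, 0 to 2 members were higher with a library left out, the 2 (PSMC1 and PSMD3) without fulvestrant replicate 3. Without that library the genes called in either direction moved from 227 of 11803 to 588 of 12069. Negative interactions numbered 0 to 1. The causes were not tested. Calls that held under all 20 alternatives were 15 of 25 with abemaciclib, 27 of 32 with fulvestrant, 29 of 32 in the combination and 5 of 11 relative to abemaciclib. Leaving out 1 library of the compared groups could end the abemaciclib calls of PSMB2, PSMD4, PSMD14, PSMD1, PSMG3, PSMD13, PSME1, PSMA3, PSMB3 and PSMG1, the fulvestrant calls of PSMD1, PSMD5, PSME1, PSMC1 and PSME3, the combination calls of PSMD1, PSMA2 and PSME3, and the calls of PSMA5, PSMD2, PSMD5, PSMC3, PSMA3 and PSMD7 relative to abemaciclib. With library totals the median interaction of all genes moved from -0.013 to 0.097 and that of the members from 0.22 to 0.33. The mean PSMB8 share moved from 0.969 to 0.639% without fulvestrant replicate 3 and from 0.934 to 0.526% without combination replicate 1, and that of PSMB9 from 1.80 to 1.15% without abemaciclib replicate 1. The PSMB10 shares above 0 rest on DMSO replicate 1 and fulvestrant replicate 2, at 1 read each. Replicate numbers did not pair libraries, since deviations from the group means correlated at -0.21 to 0.12 between same-numbered libraries (over 0.1 in 2 of 18 pairs). Between differently numbered libraries of different groups, 4 of 36 pairs were over 0.1. The highest value, 0.30, was that of DMSO replicate 1 with fulvestrant replicate 3, and its cause was not tested. With the replicate block, 25, 31 and 32 members were lower than in DMSO and 8 lower in the combination than with abemaciclib. Depth limited PSMB8, PSMB9, PSMB10 and PSMA6, at no more than 21 reads per library.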
